A study of Mus musculus with 6 samples.

Results

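DNA replication origin and fork genes are described here in fetal mouse lungs. The group holds 51 genes of origin licensing, the replicative helicase, the DNA polymerases, the sliding clamp and the supply of nucleotides. They were taken as a list of gene symbols and matched to the array's annotation. The list was chosen with earlier results of these data known. All 51 were found among 18193 genes with a single symbol, and all 51 had a brightest probe set that passed the filter on low signals, which left 12826 genes tested. Lungs were taken at E18.5, shortly before birth, and total RNA of each was hybridised to 1 Affymetrix mouse array. The tested animals carried floxed Nfib alleles (Nfib f/f) and the Dermo1-Cre allele (3 arrays, Cre-labelled lungs), and the controls carried floxed Nfib without a named Cre (3 arrays, control-labelled lungs). Cre recombinase of the Dermo1-Cre allele is made from the Twist2 locus, which is active in mesenchyme, so the RNA of a whole lung mixes cells that this Cre targets with epithelium, endothelium and blood cells. Nfib encodes nuclear factor I B, a transcription factor. By the study's title, the comparison asks what mesenchymal Nfib does for proliferation and for the epithelium as the lung matures.

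Before a cell copies its DNA, the origin recognition complex marks origins and, with Cdc6 and Cdt1, loads the ring-shaped MCM2-7 helicase onto them. At the start of S phase the kinase Cdc7 with its partner Dbf4, together with cyclin-dependent kinases, lets Cdc45 and the GINS complex join the ring, which then unwinds DNA ahead of the polymerases. Many of these genes are transcribed in late G1 under E2F transcription factors, and their transcripts are abundant in cycling cells and scarce in resting cells, so in the fetal lung they are read as a sign of how much of the tissue is proliferating.

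The E2F motif is shown because it is the regulatory sequence that many replication genes are known to share. RefSeq promoter windows of GRCm38.p6, from 250 bases before to 50 bases after the gene start, were matched by symbol to 42 of the 51 genes. The motif was searched on both strands as TTTCCCGC or TTTGGCGC. It was found in 14 of the 42 genes (33.3%), against 1.80% of 27025 genes with a window, or 1.56% of 32851 windows. The 6 stretches below lie before the gene start and are written 5′ to 3′ on the gene's strand, with each E2F match in capitals and 20 bases kept on either side. Mcm5, Mcm7, Cdc6 and Pola1 were chosen because their signals rose in Cre-labelled lungs, Mcm6 because it holds 2 matches before its gene start and its probe sets gave unlike results, and Orc3 because it has a match and the smallest difference of the list.
Mcm5, chr8:75109340-75109387, + strand: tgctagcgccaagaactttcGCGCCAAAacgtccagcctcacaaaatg
Mcm7, chr5:138172021-138172068, - strand: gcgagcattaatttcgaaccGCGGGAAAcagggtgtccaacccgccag
Mcm6, chr1:128359725-128359835, - strand: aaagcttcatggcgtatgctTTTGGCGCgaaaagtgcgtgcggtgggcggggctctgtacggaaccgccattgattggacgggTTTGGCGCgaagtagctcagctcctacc
Cdc6, chr11:98907993-98908040, + strand: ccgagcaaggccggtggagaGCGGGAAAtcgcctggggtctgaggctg
Pola1, chrX:93632266-93632313, - strand: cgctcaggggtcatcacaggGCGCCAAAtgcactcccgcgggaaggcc
Orc3, chr4:34614956-34615003, - strand: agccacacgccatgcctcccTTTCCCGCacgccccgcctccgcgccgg
GCGGGAAA and GCGCCAAA are the same motifs read on the other strand. The match of Mcm7 starts 165 bases before the gene start, that of Mcm5 149, those of Cdc6 and Pola1 138, and that of Orc3 41 bases before it. The 2 matches of Mcm6 start 110 and 47 bases before it. Mcm7 has 2 windows, and the 165 bases refer to the start of the window that holds the match. The other Mcm7 window held 0 E2F matches.

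Gins3 also had a match before its gene start, and Cdt1, Mcm3, Mcm8, Pold1, Pold3, Pole2 and Rfc3 had matches at or after it, 2 of them in Mcm3 and 1 in each of the others. Of the 13 genes that rose and had a window, 6 held the motif, and of the 29 that did not pass, 8 held it. None of the 16 matches overlapped a match of the 3 other motifs searched. The CCAAT box, spelled CCAAT, stood in 25 of 42 genes (59.5%) against 41.1% of all genes with a window, and the cell cycle homology element TTTGAA in 7 (16.7%) against 20.2%. The palindromic nuclear factor I motif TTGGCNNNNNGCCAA was found in 0 of the 42 windowed genes, and in 12 of all 27025 (0.0444%). A motif this rare could hardly be met in 42 genes, and shorter or looser forms were not searched. The count of 0 therefore says nothing about nuclear factor I sites at these genes. These are matches of letters in a window of 300 bases and no record of binding.

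On the arrays as a whole, the trimmed mean of the linear signal was 150.04 to 150.05, and of 27022 probe sets in the limma fit 380 were higher and 583 lower in Cre-labelled lungs at an adjusted p of 0.05 (963 in all), the threshold used throughout. Nfib itself was no check of the labels: 5 of its 6 tested probe sets rose by 2.05- to 2.20-fold in Cre-labelled lungs and the sixth did not pass (0.929-fold, adjusted p = 0.71), and the position of these probes against the floxed part was not used here. Directions therefore rest on the labels. The summed linear signal of marker genes was lower in Cre-labelled lungs, without overlap, for epithelium (21969 to 23296 against 24507 to 42020 in control-labelled lungs), endothelium (5031 to 6402 against 6951 to 7567), immune cells (2706 to 3409 against 4584 to 5366) and mesothelium (817 to 1353 against 1686 to 2185). Such sums rest mostly on the brightest probe sets. Means were lower in Cre-labelled lungs for 8 of 9 epithelial, 6 of 7 endothelial, 6 of 7 immune and 4 of 5 mesothelial markers. Past the threshold in limma, only 1 epithelial (Sftpb), 0 endothelial, 1 immune (Lyz2) and 1 mesothelial (Msln) marker fell. Of all 12826 tested genes, 6607 had a lower mean and 390 fell past the threshold. At an unadjusted limma p under 0.05, 5 epithelial, 3 endothelial, 4 immune and 2 mesothelial markers were lower and 1 epithelial marker, Epcam, was higher. Of the markers with a higher mean, Epcam was higher by 0.32 and Tek by 0.10 on the log2 scale, without overlap between the groups. Wt1 was higher by 0.47 and Laptm5 by 0.04, with overlap, and none of these passed. The summed signal overlapped between the groups for mesenchyme, erythroid cells, liver and thymus. Of the 9 measured thymus markers 7, Rag1, Rag2 and Cd3e among them, lay below the filter level of 4 on the log2 scale in both groups. Erythroid sums were 1714 to 2105 in Cre-labelled and 1996 to 2587 in control-labelled lungs, with Hba-a1, Hbb-bh1 and Epb42 below that level in both. The mean log2 signal of 10 cardiac muscle markers was 6.35, 7.29 and 8.22 on the Cre-labelled arrays and 9.54, 8.72 and 7.88 on the control-labelled arrays. This level varied within both groups, and its mean was lower in Cre-labelled lungs. All 10 markers had a lower mean there, 3 of them without overlap between the groups. In limma 8 were lower at an unadjusted p under 0.05, as were 1647 of 12826 tested genes. Only Myh7 passed (-1.03, adjusted p = 0.031). In tissue RNA, fewer cells of a type and less RNA per cell cannot be told apart.

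Among the replication genes, calls were most frequent for the MCM2-7 helicase (5 of 6 rose in Cre-labelled lungs), licensing factors (2 of 3) and helicase activation (5 of 8). They were less frequent for the polymerases and primase (2 of 9) and for the clamp, its loader and the flap nuclease (2 of 7). Of the 51 genes, 17 rose past the threshold (33.3%), none fell and 34 did not pass, and 50 had a higher mean in Cre-labelled than in control-labelled lungs. The share of all tested genes that rose was 1.92%. The 17 were Mcm2, Mcm3, Mcm4, Mcm5, Mcm7, Mcm10, Cdc6, Cdt1, Cdc7, Dbf4, Gins1, Gins2, Pola1, Pole, Rfc1, Rfc5 and Uhrf1. The median log2 difference over the list, Cre-labelled minus control-labelled, was 0.44, a 1.36-fold level, against -0.01 over all tested genes, of which 48.5% had a higher mean. Differences ran from -0.40 (Fen1) to 0.83 (Pole). At an unadjusted p under 0.05, 39 genes were higher (10.7% of all tested genes were) and 1, Fen1, was lower.

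On 41 of the 51 genes every Cre-labelled array lay above every control-labelled array, which held for 15.3% of all tested genes. The other 10 genes overlapped, and in no gene of the list did all Cre-labelled arrays lie below. The plot of every gene on every array shows this separation role by role. With each gene set to its control-labelled mean, the median over the 51 genes was 0.49, 0.48 and 0.44 on Cre-labelled arrays 1, 2 and 3, and 0.07, 0.04 and -0.13 on control-labelled arrays 1, 2 and 3. The lowest Cre-labelled median was thus well above the highest control-labelled one, with a pooled SD of 0.08 between arrays of a group.

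**Figure D1:**
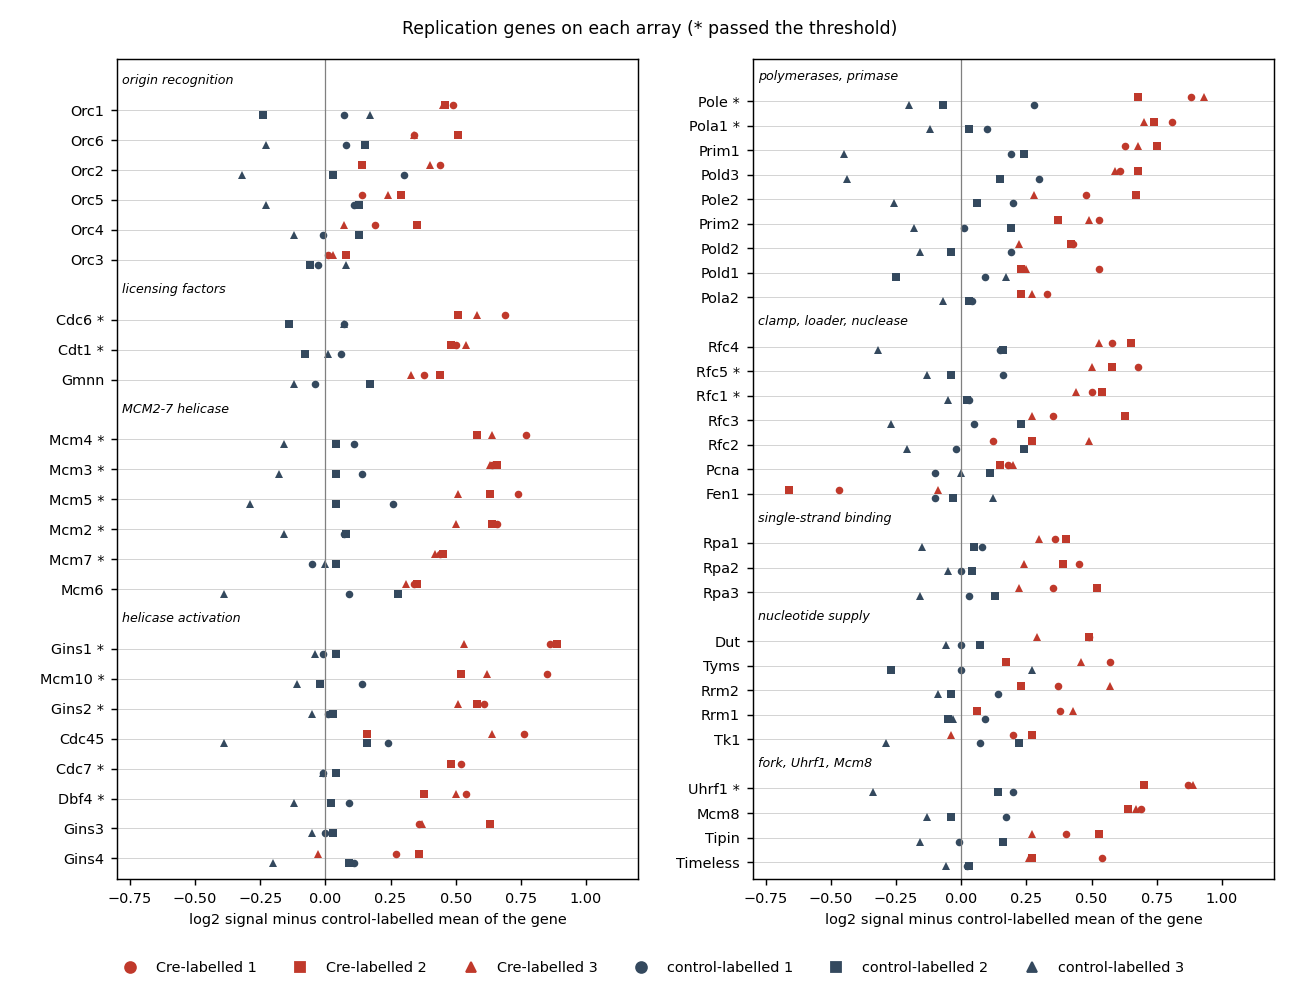
Log2 signal of each of the 51 replication genes on each array, minus the mean of that gene over the 3 control-labelled arrays. Red points are the Cre-labelled and dark points the control-labelled arrays, symbols give the replicate, and an asterisk marks the 17 genes that passed the threshold; red lies right of dark for 41 genes.

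The direction was steadier than the calls. Without Cre-labelled replicate 1, 2 or 3 the number of replication genes past the threshold was 1, 5 and 5. Without control-labelled replicate 1, 2 or 3 it was 7, 1 and 4, while the median difference stayed between 0.39 and 0.47. Over all tested genes, the fewest rose without Cre-labelled replicate 1 (54 of 12776). The most rose without control-labelled replicate 1 (98 of 12780). Of the 17 genes 1, Pola1, passed in all 6 of these fits, Mcm3 and Mcm4 passed in 4, 6 passed in 1 to 3 and 8 in 0. No gene of the list passed when the variance was estimated without an intensity trend, or with the mean of the cardiac muscle list as a covariate (0 of 51 in limma in both fits), although 36 and 33 of the genes were then higher at an unadjusted p under 0.05. The median was 0.51 with the cardiac covariate. With arrays centred on a common median 9 genes passed, and with a covariate for fetal sex 8 did. Sex was inferred from the arrays, by the signal of Xist against that of Y-linked genes. Xist was the higher on Cre-labelled array 2 and control-labelled array 1, an array of each group.

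**Figure D2:**
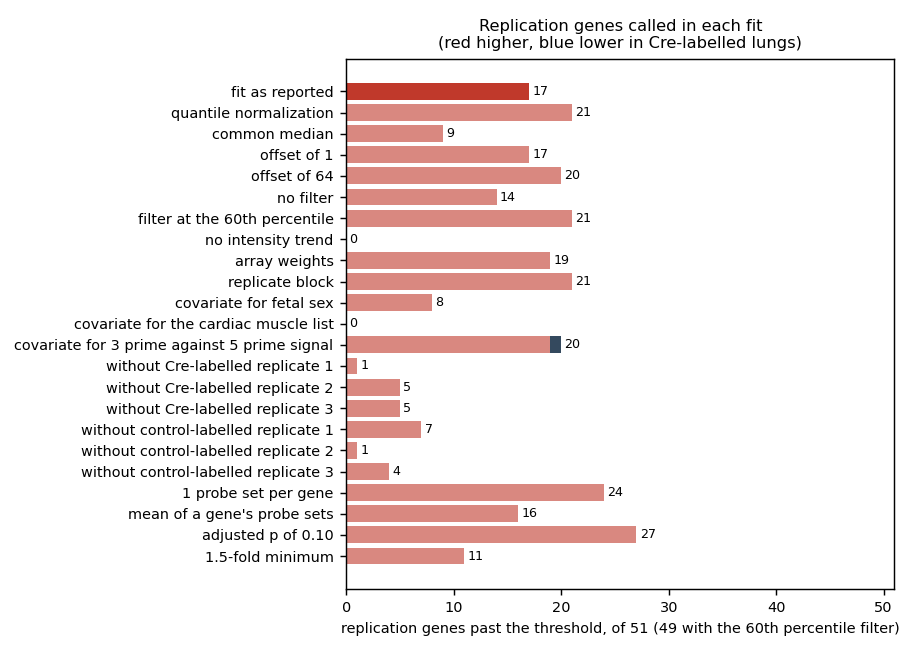
Number of the 51 replication genes past the threshold in the fit as reported (17) and in each alternative. Red bars are genes higher and the blue part is the gene, Fen1, lower in Cre-labelled lungs; counts run from 0 to 27.

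The origin recognition complex, the 6-subunit complex that binds origins, showed the smallest differences. None of its 6 genes passed in limma, and the median difference was 0.27. At an unadjusted p under 0.05, 2 were higher (33.3%, against 10.7% of all tested genes). Orc6 had the smallest p of the role. Its log2 signal was 8.69, 8.86 and 8.69 on the Cre-labelled arrays and 8.43, 8.50 and 8.12 on the control-labelled arrays. The groups did not overlap, and the difference was 0.40 ± 0.12 SE (limma adjusted p = 0.11). Orc1, the subunit whose level varies through the cell cycle, differed by 0.47 ± 0.18 SE (adjusted p = 0.19), while Orc2, Orc4, Orc5 and Orc3 differed by 0.32, 0.20, 0.22 and 0.04. Groups overlapped for Orc2, Orc3 and Orc4.

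Licensing factors load the helicase, and 2 of 3 rose. Cdc6, the ATPase that joins the origin recognition complex, read 7.76, 7.58 and 7.65 on the log2 scale in Cre-labelled lungs and 7.14, 6.93 and 7.14 in control-labelled lungs. Cdt1, which brings the MCM ring to the origin, read 8.77, 8.75 and 8.81 in Cre-labelled lungs and 8.33, 8.19 and 8.28 in control-labelled lungs. Neither gene's groups overlapped, and Cdt1 was even within each group. Cdc6 rose by 0.59 ± 0.12 SE, a 1.51-fold level (limma adjusted p = 0.032), and Cdt1 by 0.51 ± 0.09 SE, 1.42-fold (adjusted p = 0.023). Geminin, the Cdt1 inhibitor encoded by Gmnn, differed by 0.38 ± 0.11 SE and did not pass (adjusted p = 0.084). Without any 1 array neither Cdc6 nor Cdt1 passed (adjusted p 0.067 to 0.10 and 0.059 to 0.085).

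Genes of the MCM2-7 ring, the motor of the replicative helicase, rose in 5 of 6 cases, with a median difference of 0.61, the highest of the 9 roles. Mcm4 had a log2 signal of 10.46, 10.27 and 10.33 in Cre-labelled lungs and 9.80, 9.73 and 9.53 in control-labelled lungs. Mcm3 read 9.87, 9.89 and 9.86 in Cre-labelled lungs and 9.37, 9.27 and 9.05 in control-labelled lungs. Both were well apart between the groups, and Mcm3 varied by an SD of 0.02 among Cre-labelled arrays (n = 3) against 0.16 among control-labelled arrays (n = 3). The differences were 0.67 ± 0.11 SE for Mcm4 and 0.65 ± 0.11 SE for Mcm3 (limma adjusted p = 0.015 for each). Both calls were lost without Cre-labelled replicate 1 (adjusted p 0.056 for Mcm4 and 0.052 for Mcm3) or control-labelled replicate 2 (0.053 and 0.054).

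Mcm5, Mcm2 and Mcm7 passed as well. Mcm5 read 10.17, 10.06 and 9.94 on the Cre-labelled arrays and 9.69, 9.47 and 9.14 on the control-labelled arrays. Mcm2 read 8.97, 8.95 and 8.81 on the Cre-labelled arrays and 8.38, 8.39 and 8.15 on the control-labelled arrays. Control-labelled replicate 3 was the lowest array for both genes, and the groups did not overlap. Mcm7 stood out for its even signal, 11.11, 11.12 and 11.09 on the Cre-labelled arrays against 10.62, 10.71 and 10.67 on the control-labelled arrays. The rises were 0.62 ± 0.14 SE for Mcm5 (limma adjusted p = 0.047), 0.60 ± 0.11 SE for Mcm2 (adjusted p = 0.020) and 0.44 ± 0.09 SE for Mcm7 (adjusted p = 0.038). Mcm5 passed in 1 of the 6 fits without 1 array, that without control-labelled replicate 1, Mcm2 in 1, that without Cre-labelled replicate 3, and Mcm7 in 0 (adjusted p 0.079 to 0.11).

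Mcm6 depended on the probe set. Its brightest probe set read 9.89, 9.90 and 9.86 in Cre-labelled lungs and 9.64, 9.83 and 9.16 in control-labelled lungs. The groups did not overlap but were close, with a difference of 0.34 ± 0.16 SE (limma adjusted p = 0.28). A dimmer probe set of Mcm6 read 9.33, 9.32 and 9.51 in Cre-labelled lungs and 8.86, 8.73 and 8.20 in control-labelled lungs, and rose by 0.79 ± 0.16 SE (adjusted p = 0.034). Another Mcm6 probe set lay below the filter.

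**Figure D3:**
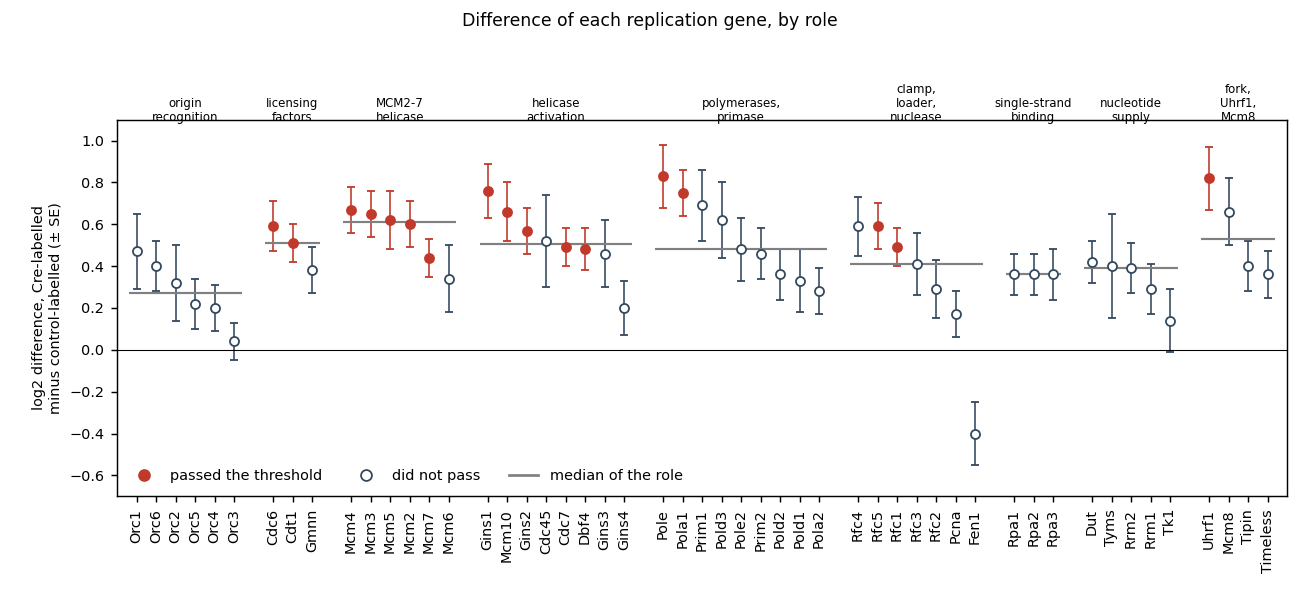
Log2 difference (Cre-labelled minus control-labelled, n = 3 each) of each of the 51 genes, grouped by role, with bars of 1 SE from the limma fit. Filled points passed the threshold, open points did not, and grey lines are the median of a role, from 0.27 for origin recognition to 0.61 for the MCM2-7 helicase.

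Genes that switch the loaded helicase on rose in 5 of 8 cases (median difference 0.50). Gins1, a subunit of the GINS complex, had a log2 signal of 7.95, 7.98 and 7.62 in Cre-labelled lungs and 7.08, 7.13 and 7.05 in control-labelled lungs. Gins2, another subunit, read 7.77, 7.74 and 7.67 in Cre-labelled lungs and 7.17, 7.19 and 7.11 in control-labelled lungs. Mcm10, which helps the activated helicase to start unwinding, read 7.55, 7.22 and 7.32 in Cre-labelled lungs and 6.84, 6.68 and 6.59 in control-labelled lungs. No overlap was seen for these genes. Gins1 rose by 0.76 ± 0.13 SE, 1.69-fold (limma adjusted p = 0.018), Gins2 by 0.57 ± 0.11 SE (adjusted p = 0.025) and Mcm10 by 0.66 ± 0.14 SE (adjusted p = 0.037). Gins1 also passed in 1 of the 6 fits without 1 array, that without Cre-labelled replicate 3 (adjusted p 0.021; 0.056 to 0.067 in the others), and Gins2 and Mcm10 in 0 (adjusted p at least 0.051 and 0.062).

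The kinase that fires origins rose in both of its subunits. Cdc7, the catalytic subunit, read 8.50, 8.46 and 8.46 in Cre-labelled lungs and 7.97, 8.02 and 7.97 in control-labelled lungs. Dbf4, which activates it, read 9.44, 9.28 and 9.40 in Cre-labelled lungs and 8.99, 8.92 and 8.78 in control-labelled lungs. Cdc7 varied less among arrays of a group (SD 0.02 and 0.03, n = 3 each) than Dbf4 (0.08 and 0.11, n = 3 each), and neither overlapped. The rises were 0.49 ± 0.09 SE for Cdc7 (limma adjusted p = 0.025) and 0.48 ± 0.10 SE for Dbf4 (adjusted p = 0.035). Neither passed without any 1 array (adjusted p 0.056 to 0.083 and 0.064 to 0.11). Cdc45, which sits between the ring and GINS, differed by 0.52 ± 0.22 SE with overlapping groups (adjusted p = 0.23), and Gins3 and Gins4 differed by 0.46 and 0.20 without passing.

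By their brightest probe sets, all 9 polymerase and primase genes had every Cre-labelled array above every control-labelled array, as did 15.3% of all tested genes. The median difference was 0.48, and 2 of the 9 rose. Pola1, the catalytic subunit of polymerase alpha that extends the primers, had a log2 signal of 8.35, 8.28 and 8.24 in Cre-labelled lungs and 7.64, 7.57 and 7.42 in control-labelled lungs. Pole, the catalytic subunit of polymerase epsilon, which copies the leading strand, read 8.01, 7.81 and 8.06 in Cre-labelled lungs and 7.41, 7.06 and 6.93 in control-labelled lungs. The gap between the groups was wider than the range within either group for Pola1. Pola1 rose by 0.75 ± 0.11 SE, 1.68-fold, with the smallest adjusted p of the 51 genes (limma, 0.0097), and by 0.68 to 0.80 without any 1 array (adjusted p 0.028 to 0.041). Pole had the largest rise of the list, 0.83 ± 0.15 SE, 1.77-fold (adjusted p = 0.021), and passed without Cre-labelled replicate 2 or control-labelled replicate 1 but not in the other 4 such fits (adjusted p 0.063 to 0.072).

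The other 7 polymerase and primase genes did not pass. Prim1, the catalytic primase subunit, differed by 0.69 ± 0.17 SE (limma adjusted p = 0.058), with control-labelled replicate 3 at 8.47 and its other 2 control-labelled arrays at 9.11 and 9.16, against 9.55 to 9.67 in Cre-labelled lungs. A second Prim1 probe set rose by 0.92 ± 0.16 SE (adjusted p = 0.020). Prim2, the large primase subunit, differed by 0.46, Pola2 by 0.28 and Pole2 by 0.48. The subunits of polymerase delta, which copies the lagging strand, differed by 0.33 (Pold1), 0.36 (Pold2) and 0.62 (Pold3). Groups overlapped for the dimmer tested probe sets of Pold3 (0.18 and -0.35) and Prim2 (0.36). They did not overlap for those of Prim1 (0.92) and Pold1 (0.55).

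Among the sliding clamp, its loader and the flap nuclease, 2 of 7 genes rose, both of them clamp loader subunits (median difference 0.41). Rfc1, the large subunit of replication factor C, had a log2 signal of 8.55, 8.59 and 8.49 in Cre-labelled lungs and 8.08, 8.07 and 8.0 in control-labelled lungs. Rfc5 read 8.47, 8.37 and 8.29 in Cre-labelled lungs and 7.95, 7.75 and 7.66 in control-labelled lungs. Groups were apart for both, with Rfc1 the more even of the pair. Rfc1 rose by 0.49 ± 0.09 SE (limma adjusted p = 0.025) and Rfc5 by 0.59 ± 0.11 SE (adjusted p = 0.027). Rfc5 passed in 1 of the 6 fits without 1 array, that without control-labelled replicate 1, and Rfc1 in 0 (adjusted p 0.051 to 0.080). Rfc4, at 0.59 ± 0.14 SE, lay just beyond the threshold (adjusted p = 0.052), while its second probe set rose by 0.70 ± 0.15 SE (adjusted p = 0.039). Rfc3 and Rfc2 differed by 0.41 and 0.29.

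By the brightest probe sets, Fen1 (-0.40) and Pcna (0.17) had the lowest differences of the role, followed by Rfc2 (0.29). Pcna, the clamp that holds polymerases on DNA, differed by 0.17 ± 0.11 SE, a 1.12-fold level (limma adjusted p = 0.44), although its groups did not overlap. Fen1, which trims the flaps between Okazaki fragments, was the only gene of the 51 with a lower mean, -0.40 ± 0.15 SE (adjusted p = 0.17). Its brightest probe set read 8.36, 8.17 and 8.74 in Cre-labelled lungs and 8.73, 8.80 and 8.95 in control-labelled lungs, with overlap, and it passed as lower when the ratio of 3′ to 5′ control signals was a covariate (adjusted p = 0.043). A dimmer Fen1 probe set read 8.65, 8.34 and 8.27 in Cre-labelled lungs and 8.25, 8.21 and 8.0 in control-labelled lungs, higher by 0.27 ± 0.13 SE (adjusted p = 0.29). The probe sets of Fen1 thus disagree in sign, and neither passed.

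Genes of the single-strand binding protein RPA, a trimer that coats unwound DNA, differed by nearly the same amount and did not pass. Rpa2 had the smallest p of the role, with a log2 signal of 8.47, 8.41 and 8.26 in Cre-labelled lungs and 8.02, 8.06 and 7.97 in control-labelled lungs. Rpa1, Rpa2 and Rpa3 each differed by 0.36 (limma adjusted p = 0.092, 0.084 and 0.12), and none of them overlapped between the groups. All 3 were higher at an unadjusted p under 0.05, as were 10.7% of all tested genes.

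Nucleotide supply genes gave 0 of 5 past the threshold in limma, with 3 higher at an unadjusted p under 0.05 and a median difference of 0.39. Dut, which removes dUTP before it can enter DNA, had the smallest p. Its log2 signal was 9.71, 9.71 and 9.51 in Cre-labelled lungs and 9.22, 9.29 and 9.16 in control-labelled lungs, without overlap. The difference was 0.42 ± 0.10 SE (adjusted p = 0.051). The ribonucleotide reductase subunits Rrm2 and Rrm1 differed by 0.39 and 0.29, thymidylate synthase (Tyms), whose signal lay near the filter level, by 0.40 ± 0.25 SE, and thymidine kinase (Tk1) by 0.14 ± 0.15 SE. Tyms, Tk1 and Rrm1 overlapped between the groups.

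The remaining role joins fork protection, maintenance of DNA methylation and the helicase Mcm8, and 1 of its 4 genes rose. Uhrf1, which binds hemimethylated DNA behind the fork and recruits the maintenance methyltransferase Dnmt1, had a log2 signal of 9.14, 8.97 and 9.16 in Cre-labelled lungs and 8.47, 8.41 and 7.93 in control-labelled lungs. Control-labelled replicate 3 was the low array, and the groups did not overlap. Uhrf1 rose by 0.82 ± 0.15 SE, 1.77-fold (limma adjusted p = 0.021), and passed without Cre-labelled replicate 2, control-labelled replicate 1 or control-labelled replicate 3, but not without any of the other 3 arrays (adjusted p 0.051 to 0.071). Mcm8, a paralog of the ring subunits that acts in recombination, differed by 0.66 ± 0.16 SE (adjusted p = 0.055). Tipin and Timeless, partners that stabilise stalled forks, differed by 0.40 and 0.36 and did not pass.

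Probe sets of the same gene mostly pointed the same way. The 51 genes had 111 probe sets, of which 95 were tested and 16 lay below the filter. Of the 95, 91 had a higher mean in Cre-labelled lungs. In limma 26 rose and none fell, against 1.41% of all tested probe sets that rose. At an unadjusted p under 0.05, 59 were higher and 2 lower. Of all tested genes, each by its brightest probe set, 10.7% were higher at that unadjusted p. Several tested probe sets were present for 32 genes, and 10 of these 32 were among the 17 that rose. Of the 10, Mcm2, Mcm3, Mcm4 and Mcm7 had a second probe set that rose and 6 had none. Counting a gene by any of its probe sets added Mcm6, Prim1 and Rfc4, for 20 genes. Without 1 array, 5 to 13 of the probe sets rose, 5 without Cre-labelled replicate 1 and 6 without control-labelled replicate 2. With probe sets averaged by gene, 16 replication genes passed, without Cdc7 (adjusted p = 0.051), Gins2 (0.055), Rfc1 (0.11) and Uhrf1 (0.051). Probe sets of opposite sign occurred for Fen1, Orc4, Pold3 and Rrm2. The brightest probe sets of Mcm5, Pold3, Fen1 and Rrm2 have names ending in x_at, with which Affymetrix marks probes that may also match other transcripts. Dimmer probe sets that rose have this ending too for Mcm4 (1.05), Mcm6 (0.79), Mcm3 (0.70) and Mcm7 (0.65). Those of Mcm2 and Rfc4 and a further one of Mcm7 end in s_at, as do the brightest probe sets of Mcm3, Mcm7 and Gins2. The dimmer one of Prim1 that rose ends in a_at, and a further dimmer one of Mcm3 in at alone.

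**Figure D4:**
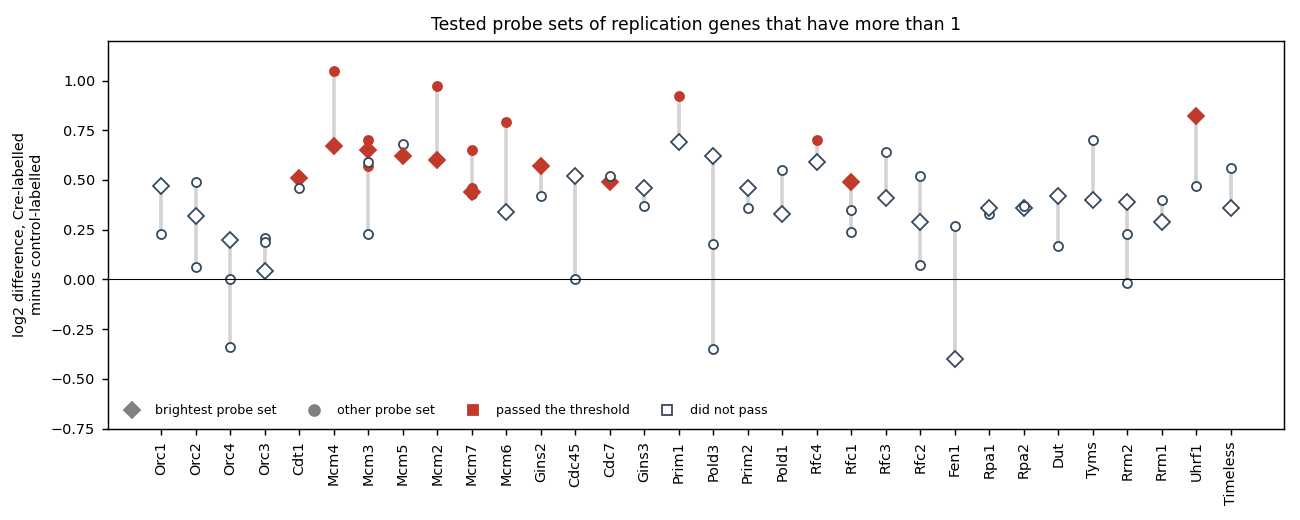
Log2 difference (Cre-labelled minus control-labelled) of each tested probe set of the 32 genes with more than 1. Diamonds are the brightest probe set, circles the others, and red marks those past the threshold; the second probe set of Mcm4 lies highest, at 1.05, and 4 probe sets lie below 0.

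Control-labelled replicate 3 was low for these genes. It was the lowest of the 3 control-labelled arrays for 41 of the 51 genes, against 40.8% of all tested genes, and Cre-labelled replicate 3 was the lowest of its group for 27, against 38.0% of all tested genes. These 2 arrays also had the largest excess of 3′ over 5′ signal of the Actb and Gapdh control probe sets, 0.45 on Cre-labelled replicate 3 and 0.23 on control-labelled replicate 3 on the log2 scale, against 0.04 to 0.09 on the other 4 arrays, and the lowest array weights in limma (0.670 and 0.588). Without control-labelled replicate 3 the median difference was 0.39 and 4 genes passed. Without Cre-labelled replicate 3 it was 0.46 and 5 genes passed. With the 3′ to 5′ difference as a covariate it was 0.45, with 19 genes higher and 1 lower. Beyond these fits, the part of the 3′ to 5′ difference in the result was not tested.

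Other genes of replication, a list of 56 that are not among the 51, include ligases, histone chaperones and checkpoint genes. Of 52 measured, 10 rose (19.2%, against 1.92% of all tested genes) and none fell in limma. At an unadjusted p under 0.05, 32 were higher (61.5%, against 10.7% of all tested genes) and 2 lower. The median difference was 0.35, and the rest of the 56 were not analysed here. Hells, a chromatin remodeller needed for DNA methylation, had a log2 signal of 9.02, 8.95 and 8.96 in Cre-labelled lungs and 8.34, 8.22 and 8.0 in control-labelled lungs. Wdhd1, which links polymerase alpha to the helicase, read 8.27, 8.18 and 8.12 in Cre-labelled lungs and 7.56, 7.58 and 7.5 in control-labelled lungs. Topbp1, which helps to load Cdc45, read 9.84, 9.77 and 9.81 in Cre-labelled lungs and 9.42, 9.32 and 9.35 in control-labelled lungs. Groups were apart for each of these genes. The rises were 0.79 ± 0.11 SE for Hells (adjusted p = 0.0090), 0.64 ± 0.10 SE for Wdhd1 (adjusted p = 0.014) and 0.45 ± 0.09 SE for Topbp1 (adjusted p = 0.029). Without 1 array Hells passed in 6 of 6 fits, Wdhd1 in 5, all but that without Cre-labelled replicate 1 (adjusted p 0.053), and Topbp1 in 0 (adjusted p 0.069 to 0.10), and the list gave 1 to 5 genes. As the mean of its probe sets Topbp1 differed by only 0.07 (adjusted p = 0.76). The others that rose were the ligase gene Lig1, the histone chaperone gene Nasp, Atad5, which unloads the clamp, the thymidylate kinase gene Dtymk, Dtl, which targets Cdt1 for destruction, Rif1 and the checkpoint kinase gene Chek1.

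Genes of S-phase entry and the E2F network had means on both sides of 0. Of 36 measured, 5 rose (13.9%, against 1.92% of all tested genes) and none fell in limma. At an unadjusted p under 0.05, 16 were higher (44.4%, against 10.7% of all tested genes) and 2 lower. In all, 23 had a higher and 13 a lower mean, and the median difference was 0.21. Skp2, which marks the inhibitor p27 for destruction, had a log2 signal of 9.39, 8.99 and 9.17 in Cre-labelled lungs and 8.60, 8.41 and 8.32 in control-labelled lungs. Mycn, a growth-promoting transcription factor of the fetal lung, read 8.09, 8.23 and 7.76 in Cre-labelled lungs and 7.42, 7.41 and 7.02 in control-labelled lungs. Tfdp1, the DNA-binding partner of E2F proteins, read 9.95, 9.90 and 9.93 in Cre-labelled lungs and 9.51, 9.58 and 9.51 in control-labelled lungs. The groups did not overlap for these 3 genes. Skp2 rose by 0.74 ± 0.13 SE (adjusted p = 0.018), Mycn by 0.74 ± 0.16 SE (adjusted p = 0.039; -0.20 as the mean of its probe sets) and Tfdp1 by 0.40 ± 0.09 SE (adjusted p = 0.040). Cyclin A2 (Ccna2) and its kinase Cdk2 were the other 2 that rose. Without 1 array the list gave 0 or 1 gene. Cdkn1a, which encodes the cyclin-dependent kinase inhibitor p21, had the largest difference of the list in size, -0.75 ± 0.20 SE (adjusted p = 0.079), with a log2 signal of 6.91, 7.0 and 6.53 in Cre-labelled lungs and 7.49, 7.23 and 7.98 in control-labelled lungs, and E2f2 differed by -0.35 ± 0.13 SE (adjusted p = 0.17). For both, every Cre-labelled array lay below every control-labelled array. E2f1 itself was at 0.977-fold (adjusted p = 0.95).

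Mitotic genes act later in the cycle. Of 24 measured, 13 rose (54.2%, against 1.92% of all tested genes) and none fell in limma. At an unadjusted p under 0.05, 22 were higher (91.7%, against 10.7% of all tested genes) and 0 lower. The median difference was 0.51, and Ccnb1 was not analysed here. Ect2, needed for cytokinesis, had a log2 signal of 9.26, 9.44 and 9.54 in Cre-labelled lungs and 8.79, 8.75 and 8.75 in control-labelled lungs. Top2a, which untangles sister chromatids, read 11.03, 10.93 and 10.97 in Cre-labelled lungs and 10.48, 10.42 and 10.37 in control-labelled lungs. Ttk, a spindle checkpoint kinase, read 8.45, 8.33 and 8.13 in Cre-labelled lungs and 7.74, 7.68 and 7.51 in control-labelled lungs. For these genes, too, the groups were apart. Mki67, the marker of cycling cells, read 11.18, 11.13 and 11.26 in Cre-labelled lungs against 10.74, 10.68 and 10.60 in control-labelled lungs. The rises were 0.65 ± 0.10 SE for Ect2 (adjusted p = 0.013), 0.55 ± 0.10 SE for Top2a (adjusted p = 0.019), 0.66 ± 0.12 SE for Ttk (adjusted p = 0.023) and 0.52 ± 0.10 SE for Mki67 (adjusted p = 0.026). Without 1 array Ect2 passed in 5 fits, all but that without control-labelled replicate 2 (adjusted p 0.053), Top2a and Ttk in 1 and Mki67 in 0, and the list gave 0 to 5 genes. Replication and mitotic genes were measured on the same arrays, and no test was made of a difference between the lists.

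**Figure D5:**
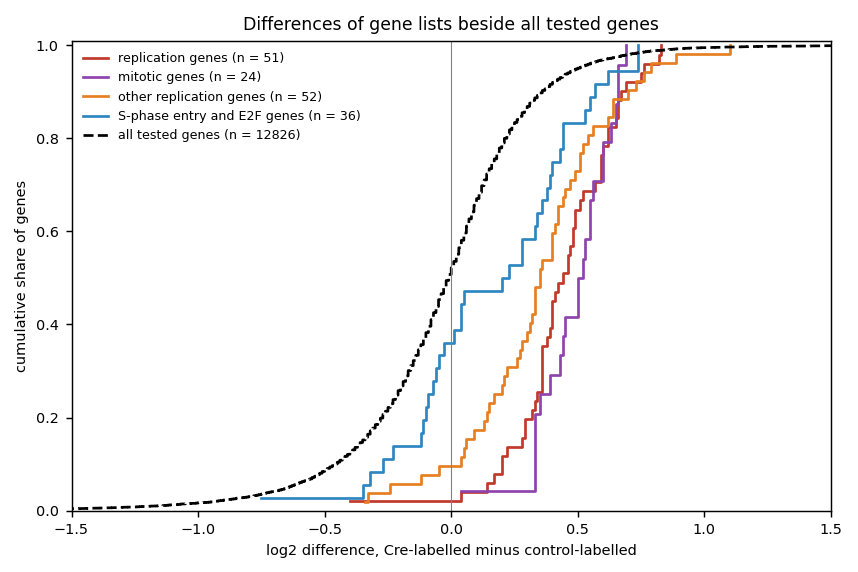
Cumulative share of genes against log2 difference (Cre-labelled minus control-labelled) for the 51 replication genes, 3 other lists and 12826 tested genes. The replication and mitotic curves lie right of all genes over most of their range, with medians of 0.44 and 0.51 against -0.01, and the S-phase entry and E2F curve lies between them, with a median of 0.21.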

How the data were processed

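RNA of 6 lungs, 3 per group, was measured on Affymetrix arrays; the labels call the 3 arrays of a group biological replicates. The deposited values are log2 signals, made with MAS5 and affy per the submitters' processing notes, and no further step or version is named. No offset or rescaling was applied. Of 45101 probe sets, 64 controls were left out; 34945 had 1 gene symbol in the platform annotation, 932 several and 9160 none, and only the first were named. The brightest probe set by mean over 6 arrays stood for a gene. Probe sets at or above the 40th percentile of mean signal entered a limma 3.58.1 fit (R 4.3.3; lmFit, then eBayes with an intensity trend; two-sided tests; no covariate; 4 residual and 5.32 prior degrees of freedom), with Benjamini-Hochberg adjustment over 27022 probe sets and a threshold of 0.05. The fit was tested on simulated data. Signals of different probe sets were not compared as levels. The members, lists, motifs and tests were chosen with earlier results of these data known. Array values are given for each called replication gene, for the gene with the smallest p in a role with at most 1 called gene, for Mki67 and for the 3 called genes with the smallest p in each other list; Mcm6, Prim1, Fen1, E2f1, E2f2, Cdkn1a and the named cell type markers were added after their values were seen. Alternatives changed normalization, scaling, offset, filter, variance trend, array weights, covariates, arrays, probe set choice and threshold. The number of arrays, 3 in a group, limits the precision, and p-values measure the spread between these animals. Figures were drawn with matplotlib 3.10.9.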

Additional observations from a re-analysis of the deposited data

How the results depend on the processing

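In the alternatives run, 49 or 50 of the 51 replication genes had a higher mean (48 of 49 with the filter at the 60th percentile), but the number past the threshold moved widely. It was 9 with arrays centred on a common median, 0 without an intensity trend, 8 with a covariate for fetal sex, 0 with the cardiac muscle covariate, 27 at an adjusted p of 0.10 and 11 with a 1.5-fold minimum, and 1 to 7 without 1 array, against 17 as reported and 14 to 24 in the other 10 alternatives. The median difference was 0.35 with an offset of 64 and 0.39 to 0.51 otherwise. For the other replication genes (10 reported) the counts were 5 with the common median, 0 without the trend, 2 with sex, 1 with the cardiac covariate, 18 with 1 probe set per gene, 20 at 0.10, 6 with the fold minimum and 1 to 5 without 1 array. For the S-phase entry and E2F genes (5 reported) they were 1 with the common median, 1 without a filter, 0 without the trend, 2 with sex, 0 with the cardiac covariate, 9 with 1 probe set per gene, 8 with probe sets averaged by gene, 9 at 0.10, 2 with the fold minimum and 0 to 1 without 1 array; 1 gene in each of the counts of 9, 8 and 9 was lower. For the mitotic genes (13 reported) they were 6 with the common median, 8 without a filter, 0 without the trend, 6 with sex, 1 with the cardiac covariate, 7 with the fold minimum and 0 to 5 without 1 array. Over all probe sets (963 reported) they were 171 without the trend, 587 with sex, 220 with the cardiac covariate, 2120 at 0.10 and 308 to 499 without 1 array. The counts of 0 are from limma; at an unadjusted p under 0.05, 36 of 51 replication genes were higher without the trend (9.13% of all tested genes) and 33 with the cardiac covariate (9.77%). The cause of these changes was not tested, beyond the fewer arrays in the fits without 1 array. Reversed single genes were Orc4 (-0.047, mean of its probe sets), Tk1 (-0.0027 without control-labelled replicate 3, up to 0.25 without another array) and Mycn (-0.20, mean of its probe sets).

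Groups share replicate numbers. Deviations of same-numbered arrays from their group means correlated at -0.0142, 0.195 and 0.138. Those of arrays with different numbers correlated at -0.271 to 0.142. The labels do not say that the numbers pair the arrays, and the fit as reported did not pair them. Whether same-numbered arrays share an effect of handling or processing was not tested. With the replicate number as a block 21 replication genes, 14 other replication genes, 5 S-phase entry and E2F genes, 15 mitotic genes and 1309 probe sets passed, and the median stayed at 0.44.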
